A study of Mus musculus with 15 samples.

Results

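The genes described here encode Prpf19, 3 of its partners in the Prp19 complex (Cdc5l, Plrg1 and Bcas2) and 5 numbered pre-mRNA processing factors (Prpf3, Prpf4, Prpf6, Prpf8 and Prpf31). They were taken by symbol as all array features with values that carry 1 of these 9 gene symbols, which gave 17 of 34479 features and 9 of 16401 genes. Prpf19 was chosen on its lower signal in exercised than in sedentary SAMP8 mice in these same arrays, so its difference in that comparison is a description and carries no test. A further Prpf6 feature was empty on all arrays. Each gene was read from its brightest feature unless another feature is named. Prpf19, Cdc5l and Prpf3 had 1 feature each.

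Whole cortex was profiled on 15 one-colour Agilent arrays with Cy3-labelled cRNA. There were 5 arrays from exercised SAMP8 mice (replicates 11 to 15), 5 from sedentary SAMP8 mice (replicates 6 to 10) and 5 from sedentary SAMR1 mice (replicates 1 to 5), all labelled adult and female. SAMP8 is a senescence-prone inbred strain and SAMR1 its senescence-resistant counterpart. The 2 strains differ at many loci, no exercised SAMR1 group was among the samples, and the labels do not state the kind and length of exercise or the exact age. They call the arrays biological replicates, without saying whether single animals or pooled tissue went onto each. Intensities were deposited as normalized linear values and are given here as log2, and only values of the same feature are compared. Between arrays the correlation over genes ran from 0.976 to 0.991, and 0 pairs of arrays held identical values. Of 10 fixed markers of cortical projection neurons, 9 were measured and 0 of these lay under the lower quartile of intensity.

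Splicing removes introns from pre-mRNA in the spliceosome, which is assembled anew on each intron from small nuclear ribonucleoproteins (snRNPs). U4, U5 and U6 snRNPs join as a preformed tri-snRNP. During activation U4 leaves, and the Prp19 complex, a non-snRNP assembly built around Prpf19 and Cdc5l, stabilises the U5 and U6 contacts of the catalytic core. Prpf19 is also a U-box ubiquitin ligase with a role in the response to DNA damage. In humans, mutations in PRPF3, PRPF4, PRPF6, PRPF8 and PRPF31 cause dominant retinitis pigmentosa.

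The 4 genes of the Prp19 complex lie apart: Prpf19 on chromosome 19, Cdc5l on chromosome 17, and Plrg1 and Bcas2 on chromosome 3. The 250 bases upstream of their RefSeq start sites in GRCm38.p6 are shown because the group means of Prpf19 were ordered unlike those of its 3 partners. Capitals mark matches, on either strand, to a GC box (GGGCGG), an ETS motif (CCGGAAG), the CCAAT box (its own letters) and a cyclic AMP response element (TGACGTCA).
Prpf19 (chr19:10894981-10895230, + strand): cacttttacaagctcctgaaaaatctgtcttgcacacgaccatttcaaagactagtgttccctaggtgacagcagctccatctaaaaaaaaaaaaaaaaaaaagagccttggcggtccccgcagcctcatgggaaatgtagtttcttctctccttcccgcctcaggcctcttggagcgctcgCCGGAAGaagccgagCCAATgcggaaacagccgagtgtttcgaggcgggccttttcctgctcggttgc
Cdc5l (chr17:45433708-45433957, - strand): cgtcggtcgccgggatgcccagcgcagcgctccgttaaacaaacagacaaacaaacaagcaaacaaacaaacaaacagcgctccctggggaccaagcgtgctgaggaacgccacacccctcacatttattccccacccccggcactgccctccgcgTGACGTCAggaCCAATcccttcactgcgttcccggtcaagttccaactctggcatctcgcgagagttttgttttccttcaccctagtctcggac
Plrg1 (chr3:83055288-83055537, + strand): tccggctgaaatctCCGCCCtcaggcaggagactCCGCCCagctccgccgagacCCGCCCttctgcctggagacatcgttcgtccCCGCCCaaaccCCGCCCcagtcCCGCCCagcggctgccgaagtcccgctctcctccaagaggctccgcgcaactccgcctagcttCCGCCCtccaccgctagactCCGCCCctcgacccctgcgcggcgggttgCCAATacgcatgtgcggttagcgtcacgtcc
Bcas2 (chr3:103171405-103171654, + strand): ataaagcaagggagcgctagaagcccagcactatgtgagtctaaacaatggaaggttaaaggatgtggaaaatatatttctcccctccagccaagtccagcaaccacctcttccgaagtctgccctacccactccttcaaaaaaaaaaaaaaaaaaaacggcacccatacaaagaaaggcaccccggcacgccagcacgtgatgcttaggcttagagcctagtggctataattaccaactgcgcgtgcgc
The Prpf19 window held 1 ETS match and 1 CCAAT box. The Cdc5l window held 1 cyclic AMP response element and 1 CCAAT box, and the Plrg1 window held 8 GC boxes and 1 CCAAT box. The Bcas2 window held none of these 4 motifs as spelled here. Over all 32851 upstream windows of this length, the GC box occurred in 32.7%, the ETS motif in 6.91%, the CCAAT box in 33.8% and the cyclic AMP response element in 1.55%. These matches describe the letters and do not show binding. RefSeq gives Prpf19 a second start site, whose window (chr19:10898395-10898644) held 1 CCAAT box. The deposited table does not say which transcript a feature reads.

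Prpf19 had its lowest mean in exercised SAMP8 mice and its highest in sedentary SAMP8 mice, with SAMR1 between them. In exercised SAMP8 mice its log2 intensity was 9.08, 10.10, 9.74, 9.12 and 9.16 (replicates 11 to 15). In sedentary SAMP8 mice it was 10.39, 10.53, 10.35, 10.46 and 10.18 (replicates 6 to 10), and in SAMR1 mice 9.47, 9.78, 9.94, 10.07 and 10.10 (replicates 1 to 5). Every exercised array lay below every sedentary SAMP8 array, and every sedentary SAMP8 array lay above every SAMR1 array. The exercised and SAMR1 arrays overlapped. Of the exercised arrays, replicates 11, 14 and 15 sat close together below all SAMR1 arrays, whereas replicate 13 lay within the SAMR1 range and replicate 12 level with its top.

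The means of Prpf19 were 9.44 ± 0.46 in exercised SAMP8, 10.38 ± 0.13 in sedentary SAMP8 and 9.87 ± 0.26 in SAMR1 (SD, n = 5 arrays each). Exercised minus sedentary SAMP8 was -0.95 ± 0.18 (log2, SE from limma), a 1.93-fold lower intensity in exercised mice. By size this was number 52 of 16401 genes. In that comparison 0 genes passed limma at an adjusted p of 0.05, a share of 0% (1162 genes had an unadjusted p under 0.05, and the smallest adjusted p was 0.521). The values of the groups did not overlap for 1.10% of all genes and for 1 of the 9 genes described here, Prpf19.

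**Figure D1:**
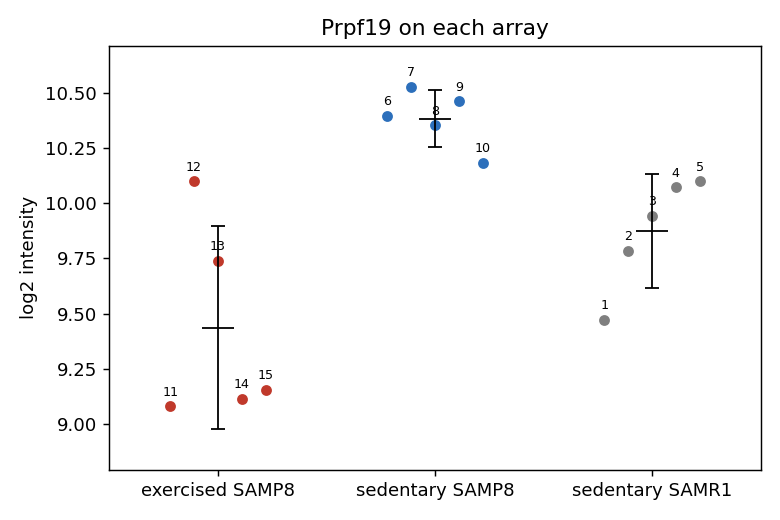
Log2 intensity of the single Prpf19 feature on each of the 15 arrays, by group, with replicate numbers; bars give mean ± SD (n = 5). All exercised SAMP8 points lie at or below 10.10, and all sedentary SAMP8 points at or above 10.18.

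The strain comparison was not the one Prpf19 was chosen on, though it uses the same sedentary SAMP8 arrays. The choice favoured high values on the sedentary SAMP8 arrays and low values on the exercised ones. It therefore tilts both comparisons of Prpf19 with SAMR1 towards the directions given here. Their p-values and intervals, and the lack of overlap between strains, do not allow for that. Sedentary SAMP8 minus SAMR1 was 0.51 ± 0.18 for Prpf19, with a 95% interval of 0.12 to 0.90 and a fold of 1.42. limma gave an unadjusted p of 0.0146 and an adjusted p of 0.200 over all genes, so the difference did not pass. For comparison, 3.03% of all genes passed in this comparison (303 higher and 194 lower in SAMP8). The groups did not overlap for 4.57% of all genes and for 1 of the 9 genes, Prpf19. Exercised SAMP8 minus SAMR1, which reuses the exercised arrays, was -0.44 ± 0.18 (95% interval -0.83 to -0.043, limma adjusted p = 0.220), and did not pass either. Without replicate 12, the highest of the exercised arrays, it was -0.60 with a limma adjusted p of 0.0421. That was the only 1 of 23 alternative settings in which it passed.

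Pooled over the 3 groups, Prpf19 also had a wider spread inside groups than its partners. Its residual SD was 0.312, above that of 78.6% of genes, against a median of 0.194 over all genes. Those of Cdc5l (0.0936), Plrg1 (0.0907) and Prpf6 (0.0974) were each larger than in under 5% of genes. Prpf3 lay nearest the middle, with 0.199. The spread of Prpf19 was uneven, with an SD of 0.46 in exercised SAMP8, 0.13 in sedentary SAMP8 and 0.26 in SAMR1. In sedentary SAMP8 its partners had 0.14 (Bcas2), 0.11 (Cdc5l) and 0.093 (Plrg1), so it was not the widest there.

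The 3 partners of Prpf19 had small differences between the groups. In exercised minus sedentary SAMP8, their brightest features differed by 0.076 to 0.14 in the direction opposite to Prpf19, and the values of the groups overlapped for each. Cdc5l, a Myb-related protein at the core of the complex, had 12.84, 12.61, 12.77, 12.70 and 12.87 in exercised SAMP8 mice. It had 12.62, 12.47, 12.74, 12.68 and 12.73 in sedentary SAMP8 mice, and 12.69, 12.54, 12.65, 12.60 and 12.60 in SAMR1 mice. These 15 values span less than the exercised Prpf19 arrays alone. Exercised minus sedentary SAMP8 was 0.11 ± 0.073 and sedentary SAMP8 minus SAMR1 was 0.034 ± 0.073 (limma adjusted p = 0.886, 95% interval -0.12 to 0.19).

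Plrg1, a WD40-repeat protein that binds Cdc5l, had 10.95, 11.20, 11.05, 11.01 and 11.08 in exercised SAMP8 mice. Sedentary SAMP8 mice had 10.92, 10.85, 11.09, 11.01 and 11.03, and SAMR1 mice 11.09, 10.86, 10.96, 11.03 and 11.02. All 3 groups covered nearly the same range. Its difference was 0.076 ± 0.072 with exercise and -0.013 ± 0.072 between strains (limma adjusted p = 0.963, 95% interval -0.17 to 0.14). Its dimmer feature differed by 0.0035 with exercise.

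Bcas2, a small coiled-coil subunit of the complex, had 12.81, 12.60, 12.77, 12.90 and 12.86 in exercised SAMP8 mice. Sedentary SAMP8 mice had 12.47, 12.57, 12.74, 12.82 and 12.63, and SAMR1 mice 12.31, 12.71, 12.50, 12.44 and 12.60. The group means were in the order exercised SAMP8, sedentary SAMP8, SAMR1, but neighbouring groups overlapped over most of their range. Exercised SAMP8 minus SAMR1 was 0.28 ± 0.093 (unadjusted p = 0.00904, adjusted p = 0.112 in limma), which did not pass. Its other 2 features gave 0.15 and 0.26 in the same comparison. With exercise the 3 Bcas2 features gave 0.14, -0.0098 and 0.045, and between strains 0.13, 0.16 and 0.21.

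The 5 numbered factors belong to the tri-snRNP, and for each of them the values of every pair of groups overlapped on the brightest feature. Prpf8, the large U5 protein that holds the catalytic RNA core, had 12.01, 11.88, 11.93, 11.98 and 11.89 in exercised SAMP8 mice. It had 11.88, 12.05, 11.82, 12.01 and 12.17 in sedentary SAMP8 mice, and 12.00, 11.79, 11.95, 12.10 and 12.05 in SAMR1 mice. The exercised arrays lay within the range of both other groups. Its difference was -0.051 ± 0.080 with exercise, and its other feature gave -0.053. Prpf6, which bridges U5 and U4/U6 within the tri-snRNP, had means of 12.87 ± 0.037 in exercised SAMP8, 12.76 ± 0.15 in sedentary SAMP8 and 12.81 ± 0.074 in SAMR1 (SD, n = 5). Its difference was 0.11 ± 0.075 with exercise. A very dim Prpf6 feature, on 12 of 15 arrays below the lower quartile, gave -0.23 ± 0.27.

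Prpf31, a U4/U6 protein needed for tri-snRNP formation, had the largest exercise difference of the remaining 8 genes, 0.20 ± 0.10. Its values were 11.60, 11.63, 11.90, 11.68 and 11.84 in exercised SAMP8 mice. Sedentary SAMP8 mice had 11.25, 11.45, 11.80, 11.50 and 11.64, and SAMR1 mice 11.53, 11.54, 11.67, 11.43 and 11.61. The exercised arrays reached higher, with overlap on both sides. Its second feature gave 0.21 ± 0.096 in exercised minus sedentary SAMP8.

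That second Prpf31 feature was the only 1 of the 17 features besides Prpf19 whose groups did not overlap in any comparison. It had 9.62, 9.60, 9.85, 9.77 and 10.06 in exercised SAMP8 mice, against 9.48, 9.54, 9.57, 9.56 and 9.48 in SAMR1 mice. Every exercised array lay above every SAMR1 array, though 9.60 and 9.57 nearly met. In that comparison the groups did not overlap for 5.22% of all 34479 features, a share close to 1 of 17. The difference of 0.26 ± 0.096 had an unadjusted p of 0.0185 and an adjusted p of 0.180 over all features in limma, and did not pass.

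Prpf3 and Prpf4 bind each other on the U4/U6 snRNP. Prpf3 had means of 10.92 ± 0.13 in exercised SAMP8, 10.84 ± 0.28 in sedentary SAMP8 and 10.90 ± 0.15 in SAMR1 (SD, n = 5). Prpf4 had means of 10.30 ± 0.16 in exercised SAMP8, 10.18 ± 0.16 in sedentary SAMP8 and 10.10 ± 0.10 in SAMR1 (SD, n = 5). Their exercise differences, 0.082 ± 0.12 and 0.12 ± 0.096, were of about the size of their errors. The features of Prpf4 did not run the same way, since its second feature gave -0.17 and feature 3, on 11 of 15 arrays below the lower quartile, gave 0.12.

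**Figure D2:**
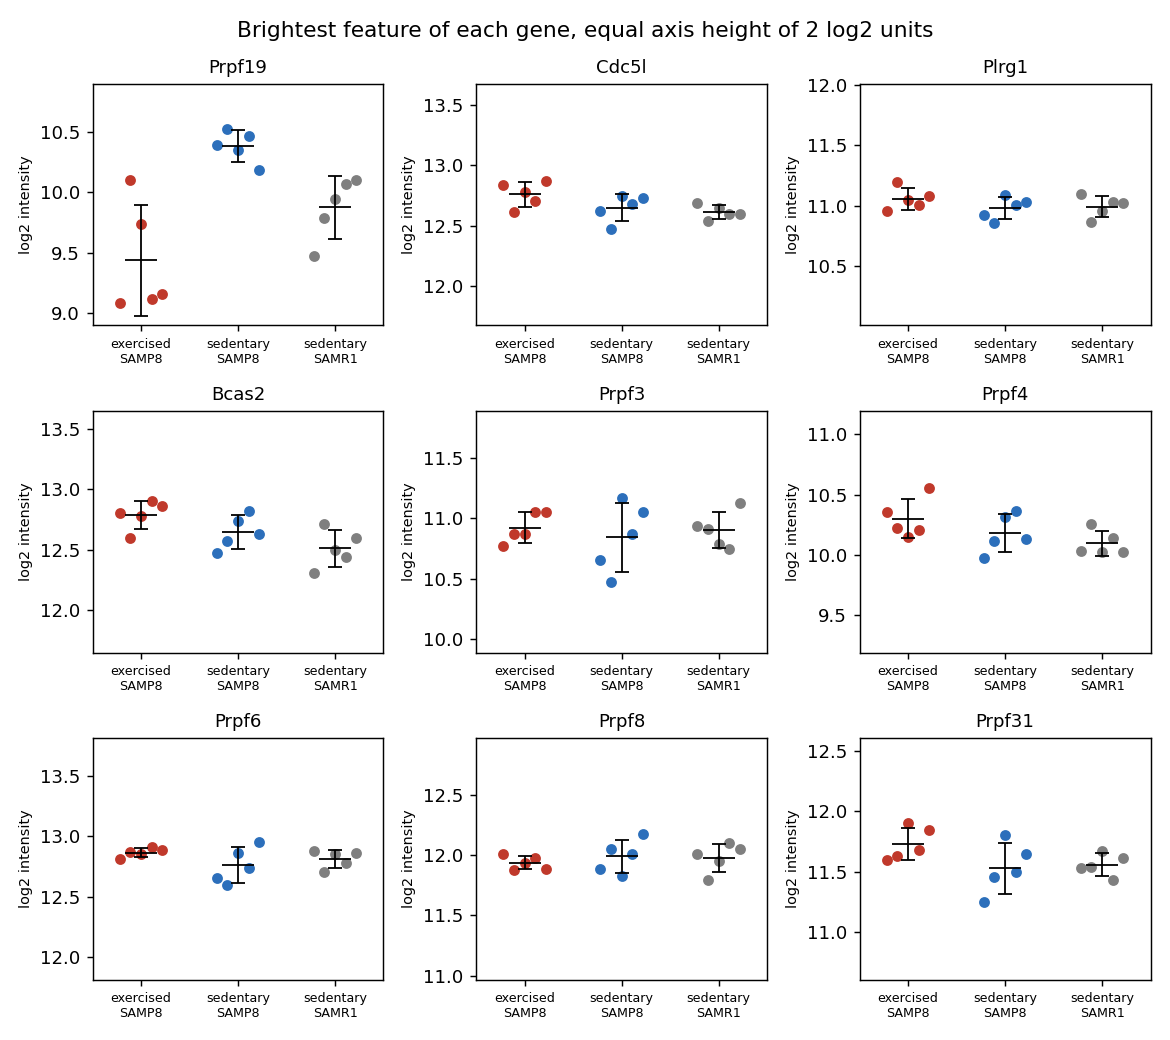
Log2 intensity of the brightest feature of each of the 9 genes on the 15 arrays, by group, with mean ± SD (n = 5); all panels have an axis height of 2 log2 units. In the Prpf19 panel sedentary SAMP8 is set apart from the other 2 groups, which overlap, and in the panels of the other 8 genes all groups overlap.

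Of the 9 genes, 0 passed limma between sedentary SAMP8 and SAMR1, where 3.03% of all genes did. Of the 8 genes besides Prpf19, 4 were higher and 4 lower in sedentary SAMP8, with differences from -0.061 for Prpf3 to 0.13 for Bcas2. Between exercised SAMP8 and SAMR1, 0 of the 9 passed, where 4.26% of all genes did. The groups overlapped for all 9 there, where 5.80% of all genes did not overlap. In exercised minus sedentary SAMP8 the 8 genes had a median difference of 0.11 and 7 were positive. Over all genes the median was 0.020 and 55.4% were positive. The 7 stayed positive under quantile normalization, median centring and an added offset. Those settings barely moved the values (0.20 for Prpf31 in each), so they could hardly have changed the count. With all features of a gene averaged, 6 were positive, Prpf6 turning to -0.061, and without replicate 7 again 6, Prpf3 turning to -0.011.

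**Figure D3:**
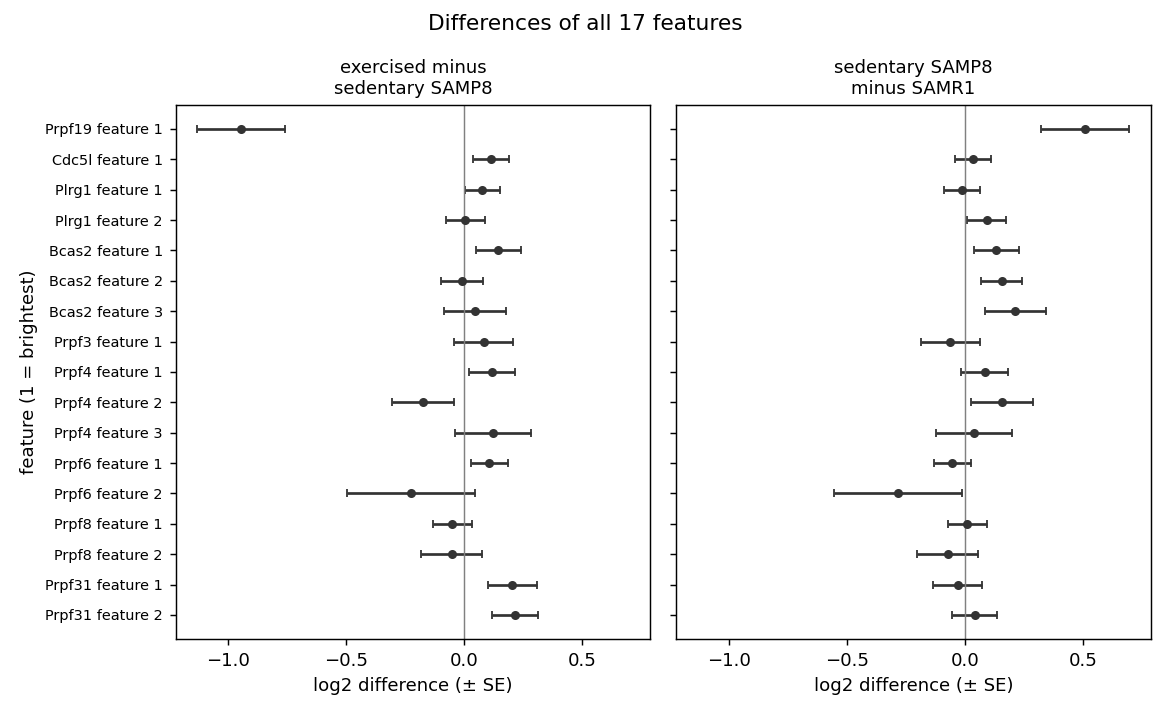
Log2 differences (± SE, limma) of all 17 features, exercised minus sedentary SAMP8 on the left and sedentary SAMP8 minus SAMR1 on the right. Prpf19 stands at -0.95 on the left and at 0.51 on the right, and all other features lie between -0.28 and 0.21.

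Features of a gene agreed to different degrees inside groups. After group means were removed, the other features of Bcas2 correlated with its brightest at 0.82 and 0.78, that of Prpf31 at 0.79 and that of Prpf8 at 0.62. Those of Plrg1 (0.19), Prpf6 (-0.14) and Prpf4 (-0.24 and 0.097) were near 0 or below it. These correlations each cover 15 arrays and describe shared spread, which includes any array-wide shift. Prpf19 has no second feature, so its values could not be set against another.

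Inside groups, 0 of the 8 correlations of Prpf19 with the other genes passed after adjustment. The largest in size was that with Cdc5l, where the correlation of deviations from the group mean over 15 arrays was -0.58, with a within-group permutation p of 0.0356. Adjusted over the 8 pairs of Prpf19 with the other genes it was 0.285, and Spearman's rho was -0.49 (permutation p = 0.0897, adjusted p = 0.651). Leaving out replicates 11 and 14, whose Prpf19 values lay farthest from the median, gave -0.69. Without replicate 14 alone r was -0.696 with an adjusted permutation p of 0.0386. No other single array, when left out, gave a correlation that passed.

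Pairs among the other 8 genes ran mostly the same way. Their 28 correlations had a median of 0.31 and ranged from -0.29 (Plrg1 with Bcas2) to 0.79 (Prpf3 with Prpf6), and 23 were positive. The 8 correlations of Prpf19 had a median of -0.23, ranged from -0.58 to 0.26, and 1 was positive, that with Plrg1. These pairs share arrays, so the values describe the table and were not tested against each other.

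The genes with spread most like that of Prpf19 inside groups, over all 16401 genes and the 15 arrays, were F10 (r = 0.89), Kdelr1 (0.87), Psap (0.85), Tnc (0.84) and Cabs1 (0.83). Kdelr1 is a receptor that returns proteins to the endoplasmic reticulum, and Psap is the precursor of the lysosomal saposins. F10 and Cabs1 were dim, and the other features of Tnc correlated at -0.44 and -0.23. The lowest were Phf20l1 (-0.85), Fam78a (-0.81) and Frmd5 (-0.79), each read from its brightest feature. Their other features gave 0.17 and 0.11 for Phf20l1, -0.19 for Fam78a, and -0.77, 0.20 and -0.037 for Frmd5. Such extremes were picked from all genes and carry no test.

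Psap resembled Prpf19 also in its group means, which the measure of likeness did not use. It had 13.21, 13.91, 13.63, 13.00 and 12.66 in exercised SAMP8 mice. Sedentary SAMP8 mice had 14.14, 14.26, 13.88, 14.12 and 13.89, and SAMR1 mice 13.47, 13.40, 13.68, 13.85 and 13.65. Replicates 12 and 13 were the highest of the exercised arrays, as they were for Prpf19. Exercised minus sedentary SAMP8 was -0.78 ± 0.19 for this feature and -0.92 for the other Psap feature, which correlated with Prpf19 at 0.73. Kdelr1 had 7.34, 8.19, 7.87, 7.42 and 7.12 in exercised SAMP8 mice, against 8.51, 8.25, 8.28, 8.35 and 8.18 in sedentary SAMP8 mice. Its difference was -0.73 ± 0.18. In the same comparison the dim Cabs1 differed by -1.14 ± 0.30, with means of 4.66 in exercised SAMP8, 5.80 in sedentary SAMP8 and 5.41 in SAMR1, the order of the Prpf19 means. F10 differed by 0.48 and Tnc by 0.25, opposite to Prpf19.

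**Figure D4:**
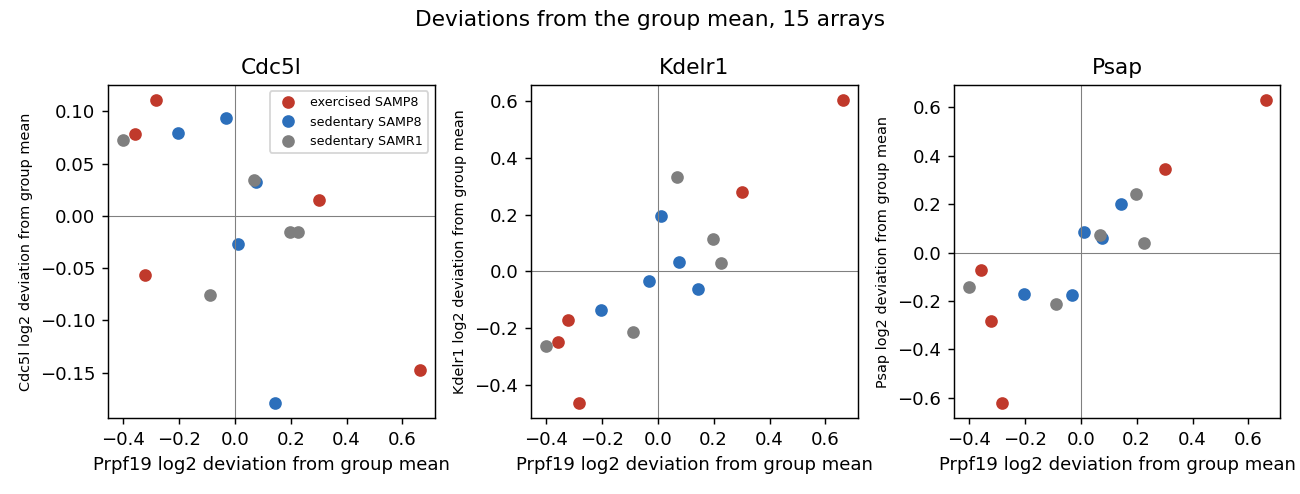
Deviation of Cdc5l, Kdelr1 and Psap from their group means (vertical, log2) against that of Prpf19 (horizontal, log2) on the 15 arrays, coloured by group. The correlations are -0.58, 0.87 and 0.85, and the exercised SAMP8 arrays have the widest spread of Prpf19.

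The neighbours of Prpf19 on chromosome 19 had no difference of its size and direction. Tmem109, the nearest measured gene on one side, differed by 0.16 ± 0.092 with exercise and by 0.068 between strains (limma adjusted p = 0.806). Zp1, the nearest on the other side and dim here, differed by 0.40 ± 0.32 with exercise and by -0.33 ± 0.32 between strains (adjusted p = 0.701). Over the 3 nearest measured genes on each side, exercise differences ran from -0.12 to 0.40.

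The wider splicing machinery was read from 8 lists with 117 measured genes. With exercise 0 of the 117 passed limma, as did 0% of all genes. Their median difference was 0.0017, against 0.020 over all genes, and it exceeded 0.5 in size for 0 of them. Of the 17 Prp19-related proteins of the active spliceosome, 8 were positive, with a median of -0.019 and a range of -0.20 to 0.22. In the U5 and tri-snRNP list 10 of 22 were positive (median -0.033). The 20 U1 and U2 snRNP proteins had a median of -0.0035. The 8 Sm core proteins, which form a ring on most of the spliceosomal snRNAs, had a median of -0.11 with 3 positive. The 15 other PRP factors and helicases had a median of 0.098 with 9 positive. Medians of the exon junction complex (6 genes, 0.011), the SR proteins (11 genes, 0.061) and the neuronal splicing regulators (18 genes, -0.0074) lay within 0.05 of that of all genes.

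Between sedentary SAMP8 and SAMR1, 1 of the 117 passed, or 0.855%, against 3.03% of all genes. Srsf11, a splicing protein with a serine- and arginine-rich domain, fell in SAMP8. It averaged 6.66 ± 0.15 in sedentary SAMP8 and 7.03 ± 0.092 in SAMR1 (SD, n = 5), a difference of -0.36 ± 0.087 with a limma adjusted p of 0.0334. That call was lost in 11 of 22 alternative settings, in which the adjusted p reached 0.0898. Genes with the next smallest p did not pass. Snrpd3, an Sm protein, differed by 0.51 ± 0.14 (adjusted p = 0.0781). Ppil1, a prolyl isomerase of the active spliceosome, differed by 0.25 ± 0.079 (adjusted p = 0.124). Usp39, needed for tri-snRNP recruitment, differed by -0.31 ± 0.10 (adjusted p = 0.147). In the remaining lists the smallest p belonged to Prpf39 (-0.39 ± 0.17, adjusted p = 0.290), the U2 protein Sf3b1 (-0.17 ± 0.074, adjusted p = 0.285), Rnps1 (0.24 ± 0.10, adjusted p = 0.298) and Celf1 (-0.23 ± 0.090, adjusted p = 0.233).

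Between exercised SAMP8 and SAMR1, 0 of the 117 passed, against 4.26% of all genes. Usp39 came nearest, at -0.37 ± 0.10 (limma adjusted p = 0.0513). The neuronal RNA-binding protein Khdrbs2 differed by 0.41 ± 0.12 (adjusted p = 0.0761), the U1 protein Snrpa by 0.26 ± 0.079 (adjusted p = 0.0786) and Wbp11 by 0.36 ± 0.11 (adjusted p = 0.0792). In the other lists the smallest p belonged to Srsf11 (-0.25 ± 0.087, adjusted p = 0.125), Prpf18 (0.31 ± 0.11, adjusted p = 0.130), Rnps1 (0.27 ± 0.10, adjusted p = 0.166) and Snrpd3 (0.29 ± 0.14, adjusted p = 0.305). Ddx46, Magoh, Magohb, Srsf7, Nova1 and Nova2 were listed but not analysed here.

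Prpf19 was also set beside 7 other U-box ubiquitin ligases. Their exercise differences had a median of 0.046, and 5 of 7 were positive. Ube4a, a ubiquitin chain elongation factor, was the exception in size. It averaged 7.08 ± 0.49 in exercised SAMP8, 7.98 ± 0.29 in sedentary SAMP8 and 7.56 ± 0.11 in SAMR1 (SD, n = 5), and exercised minus sedentary SAMP8 was -0.89 ± 0.20 (limma adjusted p = 0.521). The other 2 Ube4a features gave 0.26 and -0.079. Ube4a also had the smallest p of this list between strains (0.41 ± 0.20, adjusted p = 0.359) and between exercised SAMP8 and SAMR1 (-0.48 ± 0.20, adjusted p = 0.202). Among 15 DNA damage and transcription partners of Prpf19, 8 were positive with exercise, with a median of 0.019. Thoc1, a subunit of the mRNA export complex THO, was 0.34 ± 0.099 in that comparison (adjusted p = 0.539) and -0.28 ± 0.099 between strains (adjusted p = 0.184), and passed in neither. Between exercised SAMP8 and SAMR1 the smallest p of that list belonged to Wrn, a DNA helicase (0.22 ± 0.098, adjusted p = 0.240).

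**Figure D5:**
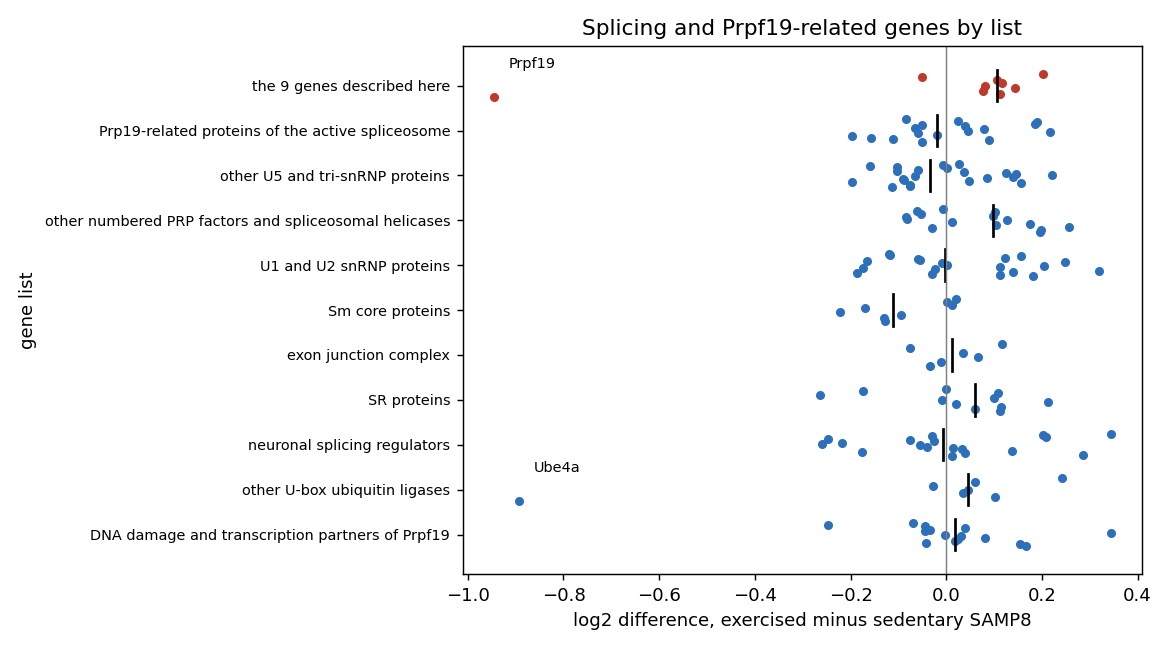
Log2 difference (horizontal, exercised minus sedentary SAMP8) of each measured gene in the 9 genes described here (red) and in the 10 wider lists (blue), with black lines at list medians. Prpf19 at -0.95 and Ube4a at -0.89 lie apart from the rest, which stay between -0.26 and 0.34.

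Markers of tissue next to the cortex were compared between the same groups. Of 13 measured striatal markers, 0 passed limma in exercised minus sedentary SAMP8. All 13 differences were negative, with a median of -0.42 and a range of -0.83 to -0.22. The summed striatal score was the mean log2 deviation of the markers from their mean over all arrays. It ran from -0.62 to 0.15 in exercised SAMP8, from 0.14 to 0.48 in sedentary SAMP8 and from -0.34 to 0.48 in SAMR1. Its mean was -0.21 in exercised SAMP8, 0.24 in sedentary SAMP8 and -0.029 in SAMR1, the order of the Prpf19 means. In exercised replicates 11 to 15 the score was -0.027, 0.15, -0.16, -0.38 and -0.62. Replicate 12 was the highest of these in Prpf19 and in score, and replicates 14 and 15 were low in both. Replicate 11, the lowest in Prpf19, had the score next below that of replicate 12. In sedentary SAMP8 replicates 6 to 10 the score was 0.15, 0.21, 0.48, 0.14 and 0.19. In SAMR1 replicates 1 to 5 it was 0.48, -0.11, 0.074, -0.25 and -0.34, highest on the array lowest in Prpf19. How the score and Prpf19 go together over the arrays was not tested. Of the 13 striatal markers, 1 lay under the lower quartile of intensity.

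The same markers and those of other borders were set between strains. Sedentary SAMP8 minus SAMR1 was positive for 12 of 13 striatal markers (median 0.23), 14 of 15 thalamic and hypothalamic markers (median 0.42), 11 of 11 choroid plexus markers (median 0.68) and 12 of 12 meningeal markers (median 0.45). Of the 11 choroid plexus markers, 4 lay under the lower quartile of intensity. In limma the markers that passed between strains were Zic1 (thalamic and hypothalamic, 0.97 ± 0.24, adjusted p = 0.0430), Aqp1 (choroid plexus, 1.01 ± 0.25, adjusted p = 0.0388), Lum (meningeal, 0.70 ± 0.14, adjusted p = 0.0114) and Gfap (astrocytic, 0.72 ± 0.14, adjusted p = 0.00771). Between exercised SAMP8 and SAMR1, Aqp1, the meningeal Dcn, Lum, Col1a1 and Foxc1 and the microglial Aif1 passed. The 6 microglial markers there did not move together, with a median of 0.024, a range of -0.60 to 0.41 and 4 positive. List medians between strains were 0.017 for astrocytes, -0.062 for oligodendrocytes, 0.015 for microglia and 0.094 for endothelium. The meningeal score ran from -0.015 to 0.33 in exercised SAMP8, from -0.010 to 0.36 in sedentary SAMP8 and from -0.56 to -0.13 in SAMR1, so that both SAMP8 groups lay above SAMR1. With exercise 0 markers passed. The medians there were -0.15 for the thalamic and hypothalamic markers (3 of 15 positive), -0.0057 for choroid plexus, 0.035 for meninges, -0.042 for astrocytes, -0.11 for oligodendrocytes, 0.029 for microglia and -0.10 for endothelium. Cortical projection neuron markers had a median of -0.024 between strains and -0.051 with exercise. The part of these shifts in the Prpf19 differences was not tested. In whole cortex, fewer cells of a type and less RNA per cell cannot be told apart.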

How the data were processed

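Each array's deposited column held linear Cy3 intensity. The submitters' processing notes name limma alone, without its version or what it did. How background was corrected and arrays were normalized is not stated there, and no slide, scan date, detection call or build was among the labels, so no batch could be fitted. At 96.2% of ranks the sorted columns differed by under 0.05 log2, so the values were treated as already normalized. Array medians were 7.70 to 7.71 (log2), and the lower quartile of intensity lay between 71.7 and 72.8. Precision is limited by how many arrays there are.

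Of 45220 features, 10741 were empty. Of the other 34479, 27968 had 1 gene symbol, 38 several and 6473 none, by the platform annotation given. The GRCm38.p6 gene table holds all 9 genes. The deposited intensity was put on a log2 scale without a pseudocount. Each gene was represented by the feature with the highest mean, giving 16401 genes, fitted with limma 3.58.1 (R 4.3.3, lmFit and eBayes) over 15 arrays in 3 groups. Two-sided p-values were adjusted by Benjamini-Hochberg over all genes, and an adjusted p under 0.05 passed. All features were fitted likewise. Correlations used log2 values minus their group mean and 100000 permutations within groups (two-sided). The fit was tested on simulated data. The limma p-values set a group difference against the spread between these arrays, pooled over the 3 groups and drawn towards that of all genes. Upstream windows came from RefSeq. Python 3.11.15, numpy 2.4.6, pandas 2.3.3, scipy 1.17.1 and matplotlib 3.10.9 were used.

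The genes, lists and rules were chosen with earlier results of these data known. The text names all 9 genes, the pathway-list genes that pass or, without one, the gene with the smallest p of each list in the strain comparison and in exercised SAMP8 against SAMR1, the markers that pass in those comparisons, the 5 most and 3 least like Prpf19 inside groups, and its nearest measured neighbours. Ube4a's other features and the group means of Psap and Kdelr1 were looked at after their values were seen. Alternatives were quantile normalization, median centring, an offset of 50, the mean of all features, leaving out the dimmest 30% of genes, array weights, a trended robust prior, fits of 2 groups only, and leaving out each array.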

Additional observations from a re-analysis of the deposited data

How the results depend on the processing

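Under the 23 alternatives, the Prpf19 difference ran from -1.11 to -0.86 in exercised minus sedentary SAMP8. In sedentary SAMP8 minus SAMR1 it ran from 0.41 to 0.57 (limma adjusted p 0.0632 to 0.340). The values did not overlap in either comparison, so leaving out an array could not change either sign. Quantile normalization and median centring left the exercise difference at -0.95. Exercised SAMP8 minus SAMR1 stayed negative for Prpf19 (-0.60 to -0.35, limma adjusted p 0.0421 to 0.405). Leaving out 1 array at a time, the number of genes passing with exercise was 0 to 3, the number of the 9 genes passing between exercised SAMP8 and SAMR1 was 0 to 1, and the number of Prpf19 correlations passing was 0 to 1. The counts of 3 genes and 1 gene came without replicate 12, and that of 1 correlation without replicate 14; the cause was not tested. With all features of a gene averaged, Prpf6 was -0.23 between exercised SAMP8 and SAMR1 (adjusted p = 0.440). Srsf11 between strains ranged from -0.40 to -0.25 (adjusted p 0.0238 to 0.0898). No paired analysis was possible because the groups share no replicate numbers. With 5 arrays a group, standard errors of the 8 genes other than Prpf19 ran from 0.072 to 0.12, which limits the size of difference that could be resolved.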
